A study of Bos taurus with 21 samples.

Results

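Glycolysis splits glucose into pyruvate, and muscle feeds it either with glucose from the blood or with glucose units cut from glycogen, the branched store of sugar that the fibre keeps beside its myofibrils. Most steps are catalysed by enzymes that the genome encodes several times over, and adult skeletal muscle is known for its own forms, such as the M form of phosphofructokinase, the beta enolase and the muscle glycogen phosphorylase, while brain, liver and embryonic tissues use the others. A list of 37 genes was followed here in foetal cattle muscle, covering the glycolytic enzymes and their isoforms, the enzymes that make and break glycogen, and the enzymes that steer pyruvate towards lactate or towards the mitochondrion. The members were chosen by name, and each was measured by the probe with the highest mean log2 intensity among the probes whose RefSeq transcript belongs to that gene in the cattle annotation. Of the 37 genes, 35 had such a probe among the 12538 named genes of the array, and 31 passed the filter on low values. *HK2* and *PHKA1* had no probe. *ENO2*, *GBE1*, *FBP1* and *FBP2* were measured but fell under the filter, so that their values come from the same model fitted without it.

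Muscle RNA was taken from 10 foetuses of the Blonde d'Aquitaine (BA) and 11 of the Charolais (CH), both French beef breeds, and each foetus was measured on 1 single-colour oligonucleotide array. The stages were 110, 180, 210 and 260 days post-conception (dpc), with 3, 2, 3 and 2 BA foetuses and 2, 3, 3 and 3 CH foetuses, respectively, all bred within their breed by 2 sires each. Among the BA foetuses 3 were male, among the CH foetuses 5. All BA foetuses at 180 and 260 dpc and all CH foetuses at 110 dpc were female. In BA, all foetuses at 180 dpc were by 1 sire and all at 260 dpc by the other. Sire and stage were thus partly confounded. A *MSTN* mutation is known in the BA breed, but the foetuses were not genotyped for it, and the breeds differ in much else. The sample labels name the Longissimus thoracis as the muscle, whereas the study's methods name the m. Semitendinosus. The 8 muscle fibre markers with a probe, of 10 listed, were well above background on every array, *ACTA1*, *CKM* and *DES* among them, so that the tissue carried the RNA of striated muscle at all stages.

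Values are normalized log2 intensities, that is the log2 of the spot intensity less the 75th percentile of its array plus a constant, on a scale where 0 is close to the median probe of an array. They compare arrays for 1 probe, not probes with each other. A step of 1 is a 2-fold difference. Differences between stages are the mean of both breeds' differences, given with the standard error (SE) of a limma fit over all 21 arrays, and the threshold was an adjusted p of 0.05 (Benjamini-Hochberg, 20132 probes tested). In whole muscle, a larger share of fibres in the tissue and more of an RNA in each fibre cannot be told apart.

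Most of the glycolytic and glycogen genes rose through foetal life. Between 110 and 260 dpc 22 of the 31 tested members rose, by 1.61-fold for the liver phosphorylase *PYGL* to 26.6-fold for the glycerol phosphate dehydrogenase *GPD1*, where 33.3% of all probes rose. Another 6 fell, where 30.8% of all probes fell, and 3, namely *PFKP*, *ENO1* and *LDHB*, did not pass. The median member was 1.76 higher on the log2 scale at 260 dpc, while the median of all tested probes was 0.04 higher. Of the 22 that rose, 21 rose by more than 2-fold, and of the 6 that fell only *PHKG2* fell by as much. The same 22 rose in BA alone and in CH alone. They include *ALDOC*, whose probes moved in opposite directions, and without it 21 of 30 rose, 20 of them by more than 2-fold. Those that fell were the hexokinase *HK1*, the liver phosphofructokinase *PFKL*, the ubiquitous mutase *PGAM1*, the brain phosphorylase *PYGB*, the catalytic phosphorylase kinase subunit *PHKG2* and *UGP2*, which makes the UDP-glucose from which glycogen is built.

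Members rose in each of the 3 steps. From 110 to 180 dpc 20 members rose and 2 fell, where 12.5% and 11.4% of all probes did. From 180 to 210 dpc 12 rose and 1 fell, beside 5.35% and 4.33% of all probes. From 210 to 260 dpc 20 rose and 3 fell, beside 24.8% and 19.9%. For 11 of the 22 rising members the largest of these steps was the one from 110 to 180 dpc, for the other 11 the one from 210 to 260 dpc, and for none the middle step, which spans 30 days against 70 and 50. Per day, the last step was the fastest for 13 of them, the first for 6 and the middle one for 3, *PGAM2*, *ENO3* and *LDHA*. These counts are for the brightest probe of each gene, and the steps were not tested against each other. Some lay close, such as those of *LDHA*, with 1.29 in the first step and 1.24 in the last. The same counts were not made for all rising probes. In all 3 steps 11 of the 22 passed, namely *PFKM*, *ALDOC*, *PGAM2*, *ENO3*, *LDHA*, *PYGM*, *GYS1*, *PGM1*, *PFKFB1*, *PDHB* and *GPD1*. Without *ALDOC* the rises of the 3 steps numbered 19, 11 and 19, and 10 members passed in all of them.

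**Figure D1:**
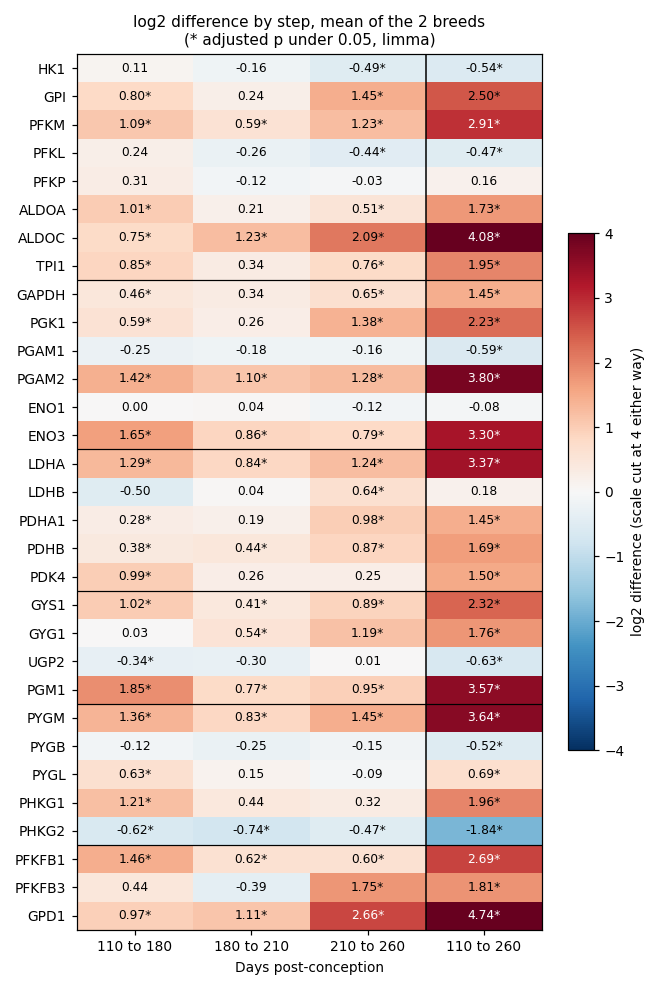
Differences in normalized log2 intensity of the 31 tested members for each step and for the whole interval (mean of both breeds, red higher and blue lower at the later stage), grouped from top to bottom as upper glycolysis, lower glycolysis, pyruvate fate, glycogen synthesis, glycogen breakdown, and regulators with *GPD1*. An asterisk marks an adjusted p under 0.05 (limma). The column for 110 to 260 dpc holds 22 rises and 6 falls that passed. The values for *ALDOC* are those of 1 of its 3 probes, the only one that rose from 110 to 260 dpc.

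The muscle fibre markers moved with these members. All 8 rose between 110 and 260 dpc, with a median difference of 2.58, and their mean level went from between 7.75 and 8.18 on the arrays at 110 dpc to between 10.2 and 10.5 at 260 dpc. Of 7 connective tissue markers 6 fell (median difference -0.61), as did 3 of the 4 erythroid markers tested, and the 3 markers of dividing cells with a probe, all under the filter, had a median difference of -2.61. Among all probes 33.3% rose and 30.8% fell. The part of the marker shifts in the members' rises was not tested.

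In upper glycolysis, where glucose is phosphorylated and split, 5 of the 8 tested members rose and 2 fell between 110 and 260 dpc. Among all probes the shares were 33.3% and 30.8%. *HK1*, the hexokinase of most tissues, was between 5.06 and 5.19 on the 5 arrays at 110 dpc and between 4.45 and 4.75 on the 5 at 260 dpc. Of its steps only the last passed (-0.49 ± 0.07 (SE), adjusted p = 2.19e-05). *GPI*, which turns glucose phosphate into fructose phosphate, rose 5.64-fold, with 1.45 of its 2.50 in the last step. *TPI1*, the triose phosphate isomerase, rose 3.87-fold (log2 difference 1.95 ± 0.13 (SE), adjusted p = 1.17e-09), and its other probes gave larger rises of 2.56 and 2.71.

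Phosphofructokinase, the committed step, showed its muscle form rising while the other forms did not. *PFKM* stood at 6.02, 6.10 and 5.70 in BA and 6.18 and 6.28 in CH at 110 dpc, 7.18 and 7.23 in BA and 7.002, 7.46 and 6.99 in CH at 180 dpc, 7.89, 7.83 and 7.79 in BA and 7.66, 7.88 and 7.55 in CH at 210 dpc, and 9.10 and 9.02 in BA and 8.73, 9.12 and 8.95 in CH at 260 dpc. The groups of successive stages did not overlap. The rise from 110 to 260 dpc was 7.52-fold (log2 difference 2.91 ± 0.11 (SE), adjusted p = 1.18e-12). *PFKL*, the liver form, lay at 5.12, 4.97 and 5.75 in BA and 5.33 and 5.18 in CH at 110 dpc, 5.85 and 5.26 in BA and 5.54, 5.41 and 5.42 in CH at 180 dpc, 5.22, 5.13 and 5.32 in BA and 5.18, 5.49 and 5.13 in CH at 210 dpc, and 4.89 and 4.80 in BA and 4.76, 4.67 and 4.84 in CH at 260 dpc. It passed as lower at 260 than at 110 dpc (-0.47 ± 0.14 (SE), adjusted p = 0.00643), with the decrease between 210 and 260 dpc (-0.44 ± 0.13 (SE), adjusted p = 0.011). Its other 2 probes were nearer to 0, and the difference did not pass on the mean of its 3 probes (-0.25). The platelet form *PFKP* was 2.30, 1.52 and 2.38 in BA and 1.53 and 1.67 in CH at 110 dpc, 2.04 and 1.93 in BA and 2.53, 1.90 and 2.47 in CH at 180 dpc, 1.78, 2.20 and 1.81 in BA and 2.02, 2.12 and 2.22 in CH at 210 dpc, and 2.26 and 2.14 in BA and 1.61, 1.82 and 1.94 in CH at 260 dpc. These values overlapped between all stages, and the difference of 0.16 had a 95% interval of -0.18 to 0.49. *PFKM* gained 3.38 on *PFKL* and 2.75 on *PFKP* on the log2 scale.

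Aldolase splits the fructose bisphosphate, and *ALDOA* encodes the form known from muscle. *ALDOA* was 9.45, 9.74 and 10.002 in BA and 10.07 and 9.94 in CH at 110 dpc, 10.71 and 11.05 in BA and 11.01, 10.92 and 10.68 in CH at 180 dpc, 11.18, 11.02 and 11.17 in BA and 10.77, 11.17 and 11.22 in CH at 210 dpc, and 11.55 and 11.65 in BA and 11.46, 11.77 and 11.55 in CH at 260 dpc. It rose 3.32-fold (1.73 ± 0.12 (SE), adjusted p = 1.69e-09), with 1.01 of this before 180 dpc. Its 3 other probes gave larger rises, between 3.48 and 3.70, of which between 1.44 and 1.51 came before 180 dpc. The larger part of the rise thus came before 180 dpc on the brightest probe only. Under quantile normalization the last step of that probe turned from 0.51 to -0.04. *ALDOC*, the form known from brain, cannot be given a direction from these arrays. The brightest of its 3 probes was 0.94, 0.70 and 1.21 in BA and 1.39 and 0.47 in CH at 110 dpc, 1.24 and 1.35 in BA and 2.48, 2.51 and 1.28 in CH at 180 dpc, 3.41, 3.03 and 3.30 in BA and 3.11, 2.34 and 2.33 in CH at 210 dpc, and 4.83 and 5.17 in BA and 5.03, 5.26 and 4.80 in CH at 260 dpc. On that probe it rose 16.9-fold (4.08 ± 0.24 (SE), adjusted p = 1.81e-10), with the arrays at 210 and 260 dpc all above those at 110 dpc. The other 2 probes, also well above background on every array, were lower at 260 than at 110 dpc, by log2 differences of -0.47 and -1.38. On the brightest probes *ALDOC* gained on *ALDOA* (-2.34 for *ALDOA* relative to *ALDOC*), and on the mean of each gene's probes the sign turned, to 2.39.

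In lower glycolysis, which yields the ATP, 4 of 6 tested members rose and 1 fell, beside 33.3% and 30.8% of all probes. *GAPDH*, the glyceraldehyde phosphate dehydrogenase that is often used as a reference gene, rose 2.73-fold on its brightest probe (1.45 ± 0.11 (SE), adjusted p = 6.88e-09), and its 7 other probes gave log2 rises between 2.31 and 3.73. *PGK1*, the phosphoglycerate kinase, rose 4.68-fold (2.23 ± 0.12 (SE), adjusted p = 5.85e-11), of which 1.38 came after 210 dpc.

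Phosphoglycerate mutase shifted towards its muscle form. *PGAM2*, the muscle form, was 6.71, 7.11 and 6.88 in BA and 7.22 and 6.90 in CH at 110 dpc, 7.98 and 8.54 in BA and 8.51, 8.75 and 8.35 in CH at 180 dpc, 9.62, 9.26 and 9.65 in BA and 9.30, 9.70 and 9.45 in CH at 210 dpc, and 10.80 and 10.91 in BA and 10.22, 11.19 and 10.69 in CH at 260 dpc. Each stage lay above the one before without overlap. The rise was 13.9-fold (3.80 ± 0.17 (SE), adjusted p = 6.10e-12) and passed in every step. *PGAM1*, the form of most other tissues, was 6.23, 5.82 and 6.23 in BA and 6.39 and 5.85 in CH at 110 dpc, 5.94 and 5.72 in BA and 5.96, 5.82 and 5.89 in CH at 180 dpc, 5.63, 5.56 and 5.56 in BA and 5.74, 5.65 and 5.94 in CH at 210 dpc, and 5.51 and 5.57 in BA and 5.34, 5.44 and 5.72 in CH at 260 dpc. It was lower at 260 dpc (-0.59 ± 0.12 (SE), adjusted p = 2.68e-04), with no single step passing. Of its 4 probes 3 fell and 1 was higher at 260 dpc (0.80), and on their mean the difference did not pass (-0.22). *PGAM2* gained 4.39 on *PGAM1*, a 20.9-fold shift of their ratio, and 4.07 on the mean of each gene's probes.

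Enolase followed the same course. *ENO3*, the beta form of muscle, was 7.60, 7.91 and 7.995 in BA and 8.32 and 8.03 in CH at 110 dpc, 9.29 and 9.98 in BA and 9.72, 9.86 and 9.46 in CH at 180 dpc, 10.75, 10.40 and 10.49 in BA and 10.33, 10.72 and 10.42 in CH at 210 dpc, and 11.26 and 11.36 in BA and 11.16, 11.50 and 11.26 in CH at 260 dpc. It rose 9.88-fold (3.30 ± 0.14 (SE), adjusted p = 3.69e-12), and 1.65 of this came before 180 dpc. Its other probes gave larger rises, between 4.19 and 4.42, of which between 1.71 and 1.84 came before 180 dpc. *ENO1*, the alpha form of embryonic and many adult tissues, was 8.30, 8.21 and 8.48 in BA and 8.57 and 8.26 in CH at 110 dpc, 8.33 and 8.31 in BA and 8.51, 8.35 and 8.45 in CH at 180 dpc, 8.30, 8.34 and 8.55 in BA and 8.19, 8.68 and 8.42 in CH at 210 dpc, and 8.46 and 8.38 in BA and 7.90, 8.21 and 8.41 in CH at 260 dpc. All of these arrays lay between 7.90 and 8.68, and the difference between 260 and 110 dpc was -0.08 (95% interval -0.31 to 0.16). The sign of this difference changed with the scaling and among the 5 *ENO1* probes, which gave between -0.14 and 0.43. *ENO2*, the neuronal form, lay under the filter, was well above background on 20 of the 21 arrays and measured between -2.61 and -0.98, with a difference of 0.03 (95% interval -0.64 to 0.70). *ENO3* gained 3.38 on *ENO1* and 3.28 on *ENO2*.

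**Figure D2:**
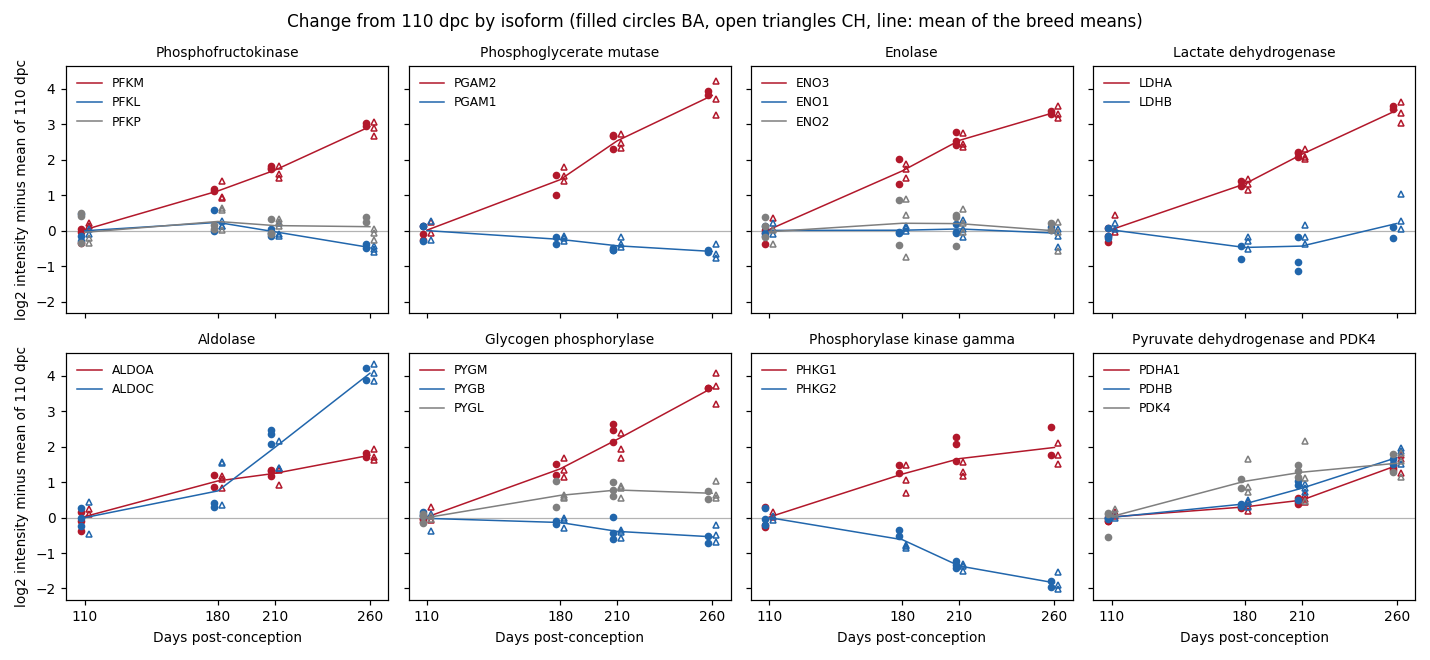
Change in log2 intensity from the mean of the 5 arrays at 110 dpc, for 8 enzyme families (each panel on the same vertical axis, days post-conception on the horizontal axis), with each array as a point (BA filled circles, CH open triangles) and the mean of the breed means as a line. In the fitted differences between 260 and 110 dpc, *PFKM*, *PGAM2*, *ENO3*, *LDHA* and *PYGM* rose by between 2.91 and 3.80. Their counterparts differed by between -0.59 and 0.69. *PHKG1* differed by 1.96 and *PHKG2* by -1.84. *ALDOA* rose by 1.73, less than the brightest *ALDOC* probe (4.08).

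Pyruvate is reduced to lactate by lactate dehydrogenase, whose A subunit prevails in fast muscle and whose B subunit in heart and slow muscle. *LDHA* was 6.90, 6.75 and 7.13 in BA and 7.49 and 7.004 in CH at 110 dpc, 8.45 and 8.32 in BA and 8.38, 8.52 and 8.19 in CH at 180 dpc, 9.28, 9.14 and 9.26 in BA and 9.07, 9.37 and 9.13 in CH at 210 dpc, and 10.56 and 10.48 in BA and 10.09, 10.69 and 10.39 in CH at 260 dpc. Successive stages did not overlap, and the rise was 10.3-fold (3.37 ± 0.12 (SE), adjusted p = 8.81e-13). *LDHB* was 7.99, 8.29 and 8.06 in BA and 8.26 and 8.43 in CH at 110 dpc, 7.42 and 7.76 in BA and 8.03, 7.90 and 7.70 in CH at 180 dpc, 8.03, 7.06 and 7.32 in BA and 7.84, 8.02 and 8.37 in CH at 210 dpc, and 7.998 and 8.32 in BA and 8.48, 8.25 and 9.24 in CH at 260 dpc. It dipped in the middle of gestation, by -0.50 from 110 to 180 dpc without passing (adjusted p = 0.0754), and rose from 210 to 260 dpc (0.64 ± 0.18 (SE), adjusted p = 0.01). That rise did not pass under quantile normalization (0.22). Over the whole interval *LDHB* differed by 0.18 (95% interval -0.23 to 0.59), and *LDHA* gained 3.19 on it.

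Pyruvate dehydrogenase, which sends pyruvate into the mitochondrion, rose as well, and late. Its alpha subunit *PDHA1* rose 2.74-fold (1.45 ± 0.09 (SE), adjusted p = 4.13e-10) and its beta subunit *PDHB* 3.22-fold (1.69 ± 0.11 (SE), adjusted p = 4.22e-10). The last step gave 0.98 and 0.87 of these rises, which is 67.3% and 51.3% of them. *PDK4*, the kinase that switches this complex off, moved early instead. It lay between 1.32 and 2.11 on the arrays at 110 dpc, between 2.61 and 3.53 at 180 dpc and between 3.03 and 3.70 at 260 dpc. Its rise of 2.84-fold (1.50 ± 0.26 (SE), adjusted p = 8.65e-05) passed in the first step only (0.99 ± 0.26 (SE), adjusted p = 0.0109), although the steps were not tested against each other.

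Of the genes that build glycogen, 3 of 4 tested rose and 1 fell, beside 33.3% and 30.8% of all probes. *PGM1*, the phosphoglucomutase that links glucose phosphate to glycogen in both directions, was between 6.39 and 6.80 at 110 dpc, between 8.24 and 8.75 at 180 dpc, between 8.83 and 9.52 at 210 dpc and between 10.0003 and 10.37 at 260 dpc. Its rise was 11.9-fold (3.57 ± 0.13 (SE), adjusted p = 5.35e-13). *GYS1*, the muscle glycogen synthase, rose 4.98-fold (2.32 ± 0.10 (SE), adjusted p = 2.92e-12) and passed in every step.

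*GYG1*, glycogenin, the protein on which a glycogen particle is started, rose after 180 dpc. It was between 5.51 and 6.05 at 110 dpc and between 5.62 and 6.06 at 180 dpc (difference 0.03, 95% interval -0.28 to 0.34), and reached 7.12 to 7.96 at 260 dpc. The last step gave 67.4% of its 3.39-fold rise (1.76 ± 0.15 (SE), adjusted p = 1.52e-08). *UGP2* was 6.82, 6.71 and 6.60 in BA and 6.83 and 7.08 in CH at 110 dpc, 6.62 and 6.62 in BA and 6.29, 6.48 and 6.35 in CH at 180 dpc, 6.32, 6.18 and 6.52 in BA and 5.85, 6.32 and 5.96 in CH at 210 dpc, and 6.07 and 6.36 in BA and 5.90, 6.20 and 6.46 in CH at 260 dpc. It was 1.55-fold lower at 260 dpc (-0.63 ± 0.12 (SE), adjusted p = 1.78e-04), and all 4 of its probes fell. The first step passed narrowly (adjusted p = 0.0488). *GBE1*, which adds the branches, lay near 0 and under the filter, with arrays between -0.81 and -0.22 at 110 dpc and between 0.69 and 1.07 at 260 dpc, and was 2.63-fold higher at the later stage in the fit without the filter (1.39 ± 0.18 (SE), adjusted p = 1.14e-05).

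In glycogen breakdown 3 of 5 tested members rose and 2 fell between 110 and 260 dpc, beside 33.3% and 30.8% of all probes. The forms again differed. *PYGM*, the muscle phosphorylase, was 4.13, 4.14 and 4.04 in BA and 4.46 and 4.09 in CH at 110 dpc, 5.37 and 5.69 in BA and 5.32, 5.86 and 5.50 in CH at 180 dpc, 6.64, 6.30 and 6.80 in BA and 6.10, 6.56 and 5.86 in CH at 210 dpc, and 7.83 and 7.83 in BA and 7.38, 8.24 and 7.88 in CH at 260 dpc. It rose 12.5-fold (3.64 ± 0.17 (SE), adjusted p = 1.09e-11) and passed in each step. *PYGB*, the brain form, was 4.95, 4.92 and 5.04 in BA and 4.51 and 4.98 in CH at 110 dpc, 4.77 and 4.69 in BA and 4.80, 4.58 and 4.87 in CH at 180 dpc, 4.46, 4.90 and 4.26 in BA and 4.47, 4.31 and 4.54 in CH at 210 dpc, and 4.37 and 4.15 in BA and 4.66, 4.20 and 4.39 in CH at 260 dpc. It was lower at 260 dpc (-0.52 ± 0.13 (SE), adjusted p = 0.00179), with 1 probe to measure it and with overlap between neighbouring stages. *PYGL*, the liver form, was 1.72, 1.48 and 1.67 in BA and 1.66 and 1.58 in CH at 110 dpc, 2.66 and 1.92 in BA and 2.16, 2.26 and 2.19 in CH at 180 dpc, 2.41, 2.22 and 2.64 in BA and 2.46, 2.17 and 2.51 in CH at 210 dpc, and 2.36 and 2.13 in BA and 2.27, 2.19 and 2.64 in CH at 260 dpc. Its arrays at 110 dpc lay below all others, and its rise of 0.63 by 180 dpc was followed by no step that passed. *PYGM* gained 4.16 on *PYGB* and 2.96 on *PYGL*.

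Phosphorylase kinase activates phosphorylase, and its catalytic gamma subunit has a muscle form, *PHKG1*, and a form of liver and testis, *PHKG2*. *PHKG1* was 0.54, 1.11 and 0.60 in BA and 0.83 and 0.96 in CH at 110 dpc, 2.31 and 2.07 in BA and 1.87, 2.30 and 1.50 in CH at 180 dpc, 3.097, 2.88 and 2.40 in BA and 1.98, 2.10 and 2.38 in CH at 210 dpc, and 2.57 and 3.38 in BA and 2.91, 2.58 and 2.31 in CH at 260 dpc. It rose 3.9-fold (1.96 ± 0.19 (SE), adjusted p = 1.17e-07), and the step to 180 dpc, 1.21, was the only single step to pass. *PHKG2* was 5.85, 6.31 and 6.01 in BA and 5.97 and 6.11 in CH at 110 dpc, 5.53 and 5.71 in BA and 5.27, 5.25 and 5.20 in CH at 180 dpc, 4.72, 4.81 and 4.63 in BA and 4.74, 4.68 and 4.53 in CH at 210 dpc, and 4.27 and 4.10 in BA and 4.51, 4.15 and 4.05 in CH at 260 dpc. It fell in each step, 3.58-fold in all (-1.84 ± 0.10 (SE), adjusted p = 9.92e-11), the largest decrease among the tested members, and all 4 of its probes fell by between 1.60 and 2.39. The *PHKG1* to *PHKG2* ratio shifted 14-fold in favour of the muscle form.

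Of the 12 isoform pairs drawn up, 10 could be tested. *HK2* had no probe, and neither *FBP2* nor *FBP1* was well above background at 110 dpc. For each array the log2 difference of the muscle and the other form was taken, and the stage labels of the 5 arrays at 110 and the 5 at 260 dpc were permuted within breeds in a two-sided exact test. In all 10 pairs the 2 stages did not overlap, and each exact p was 0.01, the smallest that the 100 arrangements can give (0.01 after adjustment over the 10 pairs). How often pairs of other probes separate in this way was not computed. Over the same interval 33.3% of all probes rose and 30.8% fell. In 9 pairs the muscle form gained, by between 2.75 and 4.39, and the exception was *ALDOA* against the brightest *ALDOC* probe. The pairs of one family share a member and are not independent.

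*FBP2* encodes the muscle fructose bisphosphatase, which runs the reverse of the phosphofructokinase reaction. It was not well above background on any of the 5 arrays at 110 dpc, where its measured intensities were -3.35, -4.51 and -3.80 in BA and -4.74 and -4.71 in CH. At 180 dpc it was well above background on every array, at 4.57 and 5.94 in BA and 3.93, 4.79 and 4.41 in CH. It stood at 6.84, 5.48 and 5.94 in BA and 6.46, 6.20 and 5.74 in CH at 210 dpc, and at 7.54 and 7.41 in BA and 7.25, 7.75 and 7.28 in CH at 260 dpc. Against the dimmest probes that were still well above background on the arrays at 110 dpc, *FBP2* was at least 263-fold higher at 180 dpc in BA and at least 136-fold higher in CH (adjusted p = 4.36e-10 for the mean of both breeds, limma without the filter). At 260 dpc it was at least 1221-fold higher in BA and at least 1125-fold higher in CH. The second *FBP2* probe was likewise not well above background at 110 dpc and on every later array was. For no other member were all arrays at 110 dpc at background and all later arrays above it.

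**Figure D3:**
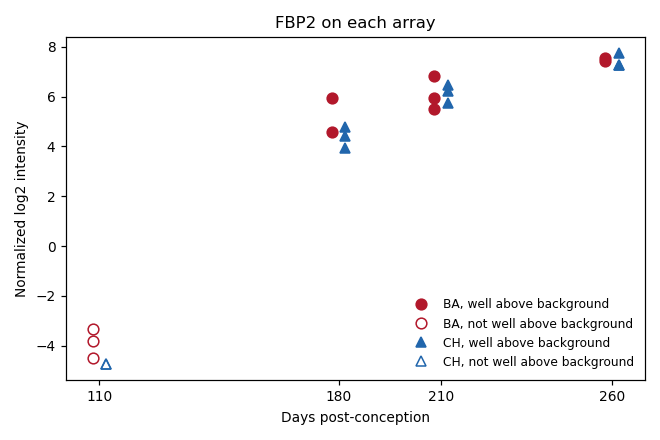
Normalized log2 intensity of *FBP2* on each of the 21 arrays by days post-conception, with open symbols where the probe was not well above background. The 5 open symbols at 110 dpc lie between -4.74 and -3.35 and mark background, and every later array lies between 3.93 and 7.75.

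*FBP1*, the liver fructose bisphosphatase, was well above background on 5 of the 21 arrays, of which 4 were at 260 dpc. At that stage both BA arrays measured it (-0.21 and -1.85), at least 3.36-fold above 110 dpc, and 2 of the 3 CH arrays did (-0.91 and -1.95), the third being not well above background.

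*PFKFB1* and *PFKFB3* encode forms of the bifunctional enzyme that makes and removes the fructose bisphosphate activator of phosphofructokinase. *PFKFB1* was 1.43, 1.35 and 1.77 in BA and 0.88 and 1.03 in CH at 110 dpc, 2.72 and 3.09 in BA and 2.50, 2.62 and 2.34 in CH at 180 dpc, 3.65, 3.31 and 3.65 in BA and 3.28, 3.12 and 2.89 in CH at 210 dpc, and 3.94 and 3.99 in BA and 4.15, 4.18 and 3.31 in CH at 260 dpc. It rose 6.44-fold (2.69 ± 0.16 (SE), adjusted p = 1.53e-10), with 1.46 before 180 dpc. *PFKFB3* was 3.08, 2.79 and 3.27 in BA and 3.38 and 3.35 in CH at 110 dpc, 4.08 and 3.04 in BA and 4.06, 3.68 and 3.48 in CH at 180 dpc, 3.83, 2.98 and 3.22 in BA and 3.51, 3.07 and 2.95 in CH at 210 dpc, and 5.19 and 5.44 in BA and 4.31, 4.75 and 5.08 in CH at 260 dpc. Until 210 dpc the stages overlapped and no step passed, and from 210 to 260 dpc it rose 3.37-fold (1.75 ± 0.20 (SE), adjusted p = 3.81e-06), which made 97.1% of its rise over the whole interval.

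*GPD1* draws on the triose phosphate pool of glycolysis to make glycerol phosphate, for the shuttle of reducing equivalents and for lipid. *GPD1* was 3.81, 4.16 and 3.83 in BA and 4.07 and 3.89 in CH at 110 dpc, 4.58 and 4.93 in BA and 5.10, 5.56 and 4.63 in CH at 180 dpc, 6.20, 5.43 and 5.70 in BA and 6.16, 6.08 and 6.60 in CH at 210 dpc, and 8.55 and 8.62 in BA and 8.55, 8.88 and 8.98 in CH at 260 dpc. Within each breed successive stages did not overlap, and the total rise of 26.6-fold (4.74 ± 0.18 (SE), adjusted p = 1.01e-12) was the largest of the tested members, with 2.66 of it after 210 dpc. Its 3 probes gave between 4.31 and 4.74. The adipocyte list, a tissue that also holds *GPD1*, had a mean level between -2.41 and -0.45 on the arrays at 110 dpc and between -1.36 and 0.61 at 260 dpc. *FABP4*, its only gene to pass the filter, did not pass the test (1.42, adjusted p = 0.17, limma). In the fit without the filter *CIDEC* (2.97, adjusted p = 0.0315) and *LIPE* (0.60, adjusted p = 0.0036) were higher at 260 dpc. *LEP* (0.63) and *PLIN1* (0.43) did not pass there. The part of adipocytes in the *GPD1* rise was not tested.

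The stages lay on different slides in part, so the steps were also read on slides that held both stages of 1 breed. From 110 to 180 dpc, 21 of the 22 members that passed had the same sign in all 4 such pairs of arrays, with *UGP2* as the exception. For 180 to 210 dpc there was 1 such pair, in which all 13 had the same sign. From 210 to 260 dpc 22 of 23 had the same sign in all 3 pairs, *LDHB* being the exception. No slide held 110 and 260 dpc of 1 breed.

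No member passed the test between the breeds. At 110 dpc 55 of the 20132 probes (0.273%) passed, at 180 dpc 0.00993%, and at 210 and 260 dpc no probe of the array (0%). At an unadjusted p under 0.05 there were 1 of the 31 members at 110 dpc, where 13.8% of all probes were, 2 at 180 dpc beside 6.17%, 6 at 210 dpc beside 5.24% and 0 at 260 dpc beside 5.34%. On average over the stages 0.358% of all probes passed, and 4 of the 31 members were at an unadjusted p under 0.05, close to the 12.5% of all probes. The test of whether the change from 110 to 260 dpc differed between the breeds passed for no member and no probe (0%), with 2 of the 31 members at an unadjusted p under 0.05, near the 7.09% of all probes. The average differences of the 31 members ranged from -0.41 to 0.38 (BA minus CH), and the widest 95% bounds were -0.69 and 0.60, so that no interval reached a 2-fold difference. At single stages the bounds reached from -1.51 to 1.29.

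**Figure D4:**
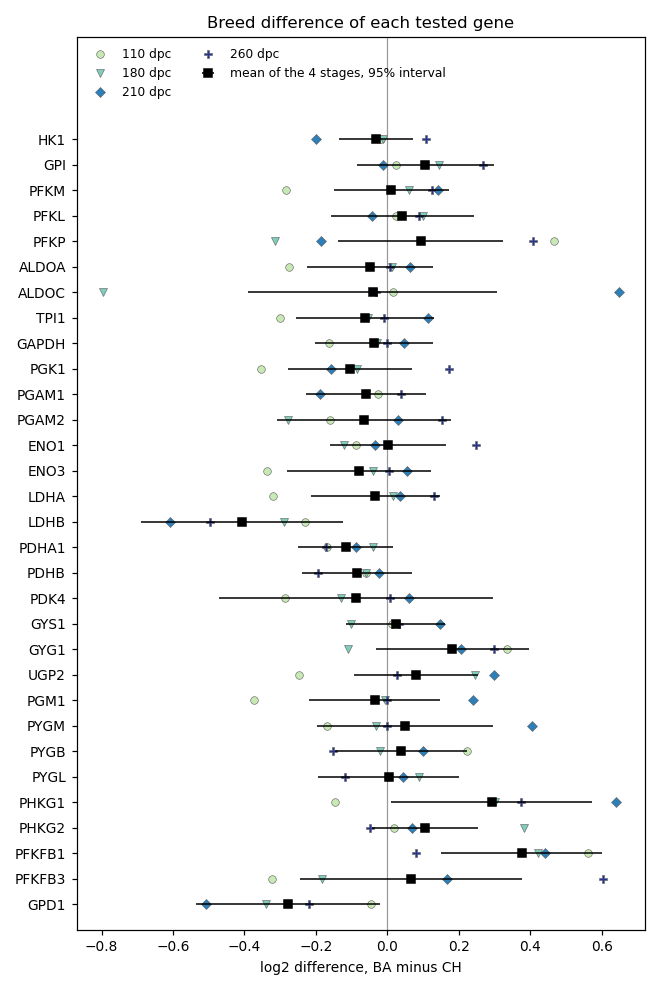
Breed differences (BA minus CH, log2) of the 31 tested members on the horizontal axis, with the mean of the 4 stages as a black square and its 95% interval as a bar, and each stage as a coloured symbol. No member passed at an adjusted p under 0.05, and the squares lie between -0.41 and 0.38.

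The 6 members with the lowest unadjusted p on average, which were thus picked for their difference, were *PFKFB1*, *LDHB*, *GPD1*, *PHKG1*, *FBP2* and *PDHA1*. *PFKFB1* was 0.38 ± 0.11 (SE, adjusted p = 0.143, limma) higher in BA, and its second probe gave 0.42. At 110, 180 and 210 dpc all BA arrays lay above all CH arrays, and at 260 dpc they overlapped. The groups hold 2 or 3 arrays, and how many of all probes separate the breeds in this way was not computed. *LDHB* was lower in BA, by -0.41 ± 0.13 (SE, adjusted p = 0.211, limma), with overlap at 110, 180, 210 and 260 dpc. *GPD1* was also lower in BA (-0.28 ± 0.12 (SE, adjusted p = 0.363, limma)), and *PHKG1* higher (0.29 ± 0.13 (SE, adjusted p = 0.388, limma)), the BA arrays being above the CH arrays at 210 dpc only. The second *PHKG1* probe, well above background on every array, gave -0.05, so that the direction rests on 1 of 2 probes. *FBP2*, from the fit without the filter, differed by 0.43 ± 0.21 (SE, adjusted p = 0.59, limma), which includes arrays at 110 dpc that were at background, and its second probe had the opposite sign (-0.15). *PDHA1* differed by -0.12 ± 0.06 (SE, adjusted p = 0.456, limma), and its 3 other probes lay between -0.02 and 0.04.

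**Figure D5:**
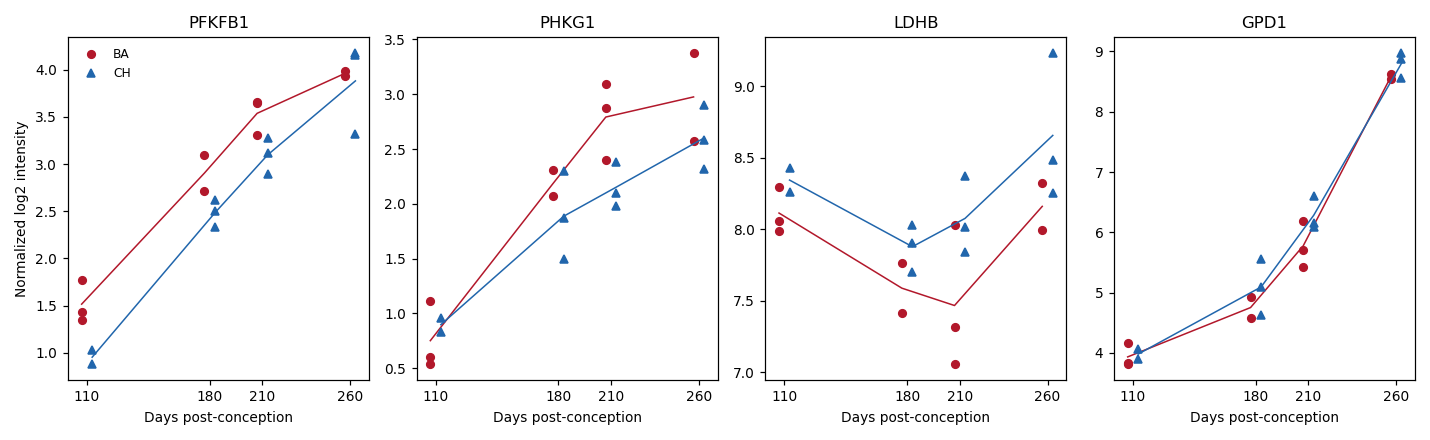
Normalized log2 intensity of *PFKFB1*, *PHKG1*, *LDHB* and *GPD1* on each array (vertical axes differ between panels) by days post-conception, BA as circles and CH as triangles, with lines through the group means. *PFKFB1* is higher in every BA array than in every CH array at 110, 180 and 210 dpc, and none of the 4 genes passed the adjusted test. The share of all probes that separate in this way was not computed.

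Where 1 slide held both breeds at the same stage, 6 pairs of arrays could be compared. *PFKFB1* was higher in BA in 5 of the 6 and *PHKG1* likewise in 5, *FBP2* was higher in 4 of the 5 pairs in which it was well above background, *LDHB* and *PDHA1* were lower in BA in 4, and *GPD1* in 3. No muscle fibre marker passed between the breeds on average over the stages. Their average differences (BA minus CH) ran from -0.26 for *ACTA1* to 0.06 for *MYBPC1*. Single stages were not read for these markers.

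Genes of the same and adjoining pathways, taken from a list of 60, were read in the same fit. Of these, 49 had a probe and 32 passed the filter. Between 110 and 260 dpc 18 of the 32 rose and 7 fell, beside 33.3% and 30.8% of all probes. Their median difference was 0.85. Those that rose most were *PPP1R3C* (3.27 ± 0.17 (SE), adjusted p = 2.99e-11), which brings the phosphatase to glycogen, *PKM* (2.96 ± 0.14 (SE), adjusted p = 9.60e-12), the pyruvate kinase of muscle that closes glycolysis, and *EPM2A* (2.82 ± 0.19 (SE), adjusted p = 7.62e-10), laforin, the glycogen phosphatase. The other subunits of the pyruvate dehydrogenase complex rose with *PDHA1* and *PDHB*, namely *DLAT* by 1.57, *DLD* by 1.47 and *PDHX* by 1.22, and so did both subunits of the mitochondrial pyruvate carrier, *MPC1* by 1.22 and *MPC2* by 1.64. *SLC16A3*, the lactate exporter of fast muscle, rose by 2.18, and the carrier *SLC16A1* differed by -0.14 without passing. None of the 32 passed between the breeds on average, 9 being at an unadjusted p under 0.05, where 12.5% of all probes were.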

How the data were processed

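The authors scanned 21 single-colour arrays and made the intensity values with Agilent Feature Extraction 10.7, with background and multiplicative detrending and no background subtraction. The methods also name normalization between arrays, by reference to an earlier description, but the authors' deposited value table holds the log2 of these intensities without a scaling between arrays, and 99.98% of its values lay within 0.01 of them. Control spots and 258 outlier spot values were left out, spots of a probe were averaged, and log2 intensities were reduced by each array's 75th percentile (525 to 1174 units) with 2.69 added. Between 29027 and 34507 of 43653 probes per array were well above background, and the number of arrays limits the precision. A probe passed the filter with a mean above 0 in 7 of the 8 groups. Probes were named through accessions and the ARS-UCD2.0 annotation (26628 probes, 12538 genes). Stages and breeds were compared with limma 3.58.1 in R 4.3.3 (8 group means, 13 residual degrees of freedom, prior 3.79), and isoform pairs by exact permutation. On simulated data with independent noise, 200 probes with a mean above 2 were shifted by 2 on the log2 scale. Of these, 199 were recovered for 260 against 110 dpc, with 9 false calls. Smaller shifts, of the size of the members' breed differences, were not simulated. Replicate numbers did not pair the foetuses (median correlation 0.03 over 66 pairs with the same number, 0.00 otherwise), and no 2 arrays were duplicates. The members, lists and tests were chosen with earlier results of these data known. By the rule for named genes every member is accounted for, with array values for the isoform pairs and for the 3 largest rises and falls, breed values for the 6 lowest unadjusted p, and 3 related genes in each direction. Alternatives were normexp background correction (offset 50), quantile and median scaling, the value table, no filter, a detection filter, the mean of all probes, sex as a covariate, slide, sire or replicate block, trended robust variance, and each array left out. Promoter and protein sequences were not analysed here.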

Additional observations from a re-analysis of the deposited data

How the results depend on the processing

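The counts of members over 110 to 260 dpc were 21 to 25 higher and 4 to 7 lower under all 12 alternatives, and 22 and 6 with any array left out. No breed count left 0 under any alternative. On the authors' value table, which is not scaled between arrays and whose median probe was 0.36 lower at 260 than at 110 dpc, 6 members rose from 180 to 210 dpc and 0 fell, 12 rose from 210 to 260 dpc and 5 fell, and 0 fell from 110 to 180 dpc. Among all probes that table gave 2492 higher and 7916 lower at 260 than at 110 dpc, against 6708 and 6198. Under quantile normalization 2 members fell from 180 to 210 dpc and 5 from 210 to 260 dpc. For 110 to 180 dpc, 1 member fell in place of 2 with median scaling, no filter, the detection filter or sire as a block, and 1 to 3 with an array left out, the second being *UGP2*. For 180 to 210 dpc the fallers were 1 to 2 with an array left out (2 without CH 210 replicate 2). The risers with an array left out were 17 to 20 from 110 to 180 dpc and 9 to 13 from 180 to 210 dpc. From 210 to 260 dpc they were 19 to 21. With the replicate block, in which numbers do not pair foetuses, the members higher and lower at 260 than at 110 dpc were 22 and 6, and no other call count moved. All 10 isoform pairs passed under every alternative run, and 1 turned: *ALDOA* minus *ALDOC* was 2.39 on the mean of all probes. Of 104 single differences, 1 that had passed changed sign, the last step of *ALDOA* (-0.043, quantile normalization). The others that did had not passed: *ENO1* over 110 to 260 dpc (0.070 on the mean of all probes, 0.025 with median scaling, -0.153 to 0.0009 with an array left out), *ENO2* (-0.25 on the value table, -0.27 with slide as a block, -0.069 to 0.140 with an array left out), *LDHB* (-0.21 on the value table, -0.38 with quantile normalization, -0.11 with slide as a block) and *PFKP* (-0.23 on the value table, -0.022 with slide as a block). The causes were not tested. Signal near background limits *ENO2*, *FBP1* and *FBP2*.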

Other observations

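The side branch of glycolysis that makes reducing power and ribose, the pentose phosphate pathway, went mostly the other way. The related genes that fell most between 110 and 260 dpc were *PGLS* (-1.22 ± 0.13 (SE), adjusted p = 3.06e-07) and *PGD* (-0.98 ± 0.07 (SE), adjusted p = 1.04e-09), enzymes of its oxidative arm, followed by *ADPGK* (-0.75 ± 0.15 (SE), adjusted p = 3.20e-04), a kinase that phosphorylates glucose with ADP. In the arm that rearranges sugars, *RPE* (-0.46) and the transketolase *TKT* (-0.45) fell, *RPIA* rose by 1.64, and *TALDO1* differed by -0.03 without passing. Falls were common over this interval, with 30.8% of all probes lower at 260 dpc. The 6 pentose phosphate genes named here passed the filter, and their levels moved over the same stages as the markers of muscle fibres and of dividing cells, whose part was not tested.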
